A study of Mus musculus with 4 samples.

Results

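Rab GTPases were followed in mouse embryonic stem (ES) cells with and without a Snai1 knockout. The members were all genes on the array whose symbol is Rab followed by a number, with at most 1 letter and 1 further digit, which gave 59 genes of the 18193 compared. They were covered by 132 probe sets of the 45101 on the array, and the brightest one (highest mean of the 4 arrays) stood for its gene. Of these genes, 3 formed the recycling group of Rab11a, Rab11b and Rab25, and 56 were the remaining Rab genes.

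RNA came from 2 samples of Snai1 knockout ES cells and 2 samples of control ES cells, 1 array for each, and the labels call the pair in each group biological replicates. All cells were kept in standard ES culture with LIF, a cytokine that maintains self-renewal, on feeder cells, without further treatment, and RNA was labelled from its 3' end. The titles of the control samples hold F/F, unexplained in the labels, and although their genotype is given as control, their source names mention a knock out too. Which promoter or enzyme removed Snai1, the ES line and the number of clones are not stated, and what separates the replicates is not stated either, so p-values reflect only how far these samples spread. Snai1 encodes Snail, a zinc finger repressor best known for silencing epithelial genes.

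The 8 ES cell markers, Pou5f1, Sox2 and Nanog among them, lay above background on all 4 arrays. Background was taken as 4.77 on the log2 scale, the highest value of 27 control probe sets for Bacillus transcripts. Snai1 itself was at 3.79 and 4.04 in the knockout against 4.41 and 4.69 in the control, below that limit in every sample, so it does not check the labels. Control probe sets at the 3' and 5' ends of Actb, which encodes beta-actin, differed by 1.11 and 0.80 in the knockout against 3.02 and 2.97 in the control (log2), a measure of RNA or labelling quality that separated the groups. The same gap for Gapdh was 0.40 and 0.27 in the knockout against 1.24 and 1.48 in the control. Feeder fibroblast markers as a set followed the replicate number rather than the group. The mean level of 23 such markers was 7.82 (knockout) and 7.90 (control) in replicate 1 but 7.22 (knockout) and 7.34 (control) in replicate 2, with 20 of the 23 above background on all arrays, and 1 of the 23, the chemokine gene Ccl2, was higher in the knockout past the threshold used below. The groups did not overlap for 6 of the 23 (4 higher, 2 lower), which is 26.1% beside 52.3% of all genes. The largest difference was that of Prrx1, at -1.24 (log2, knockout minus control), which did not pass (limma adjusted p = 0.0549).

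Rab proteins are small GTPases that mark the membranes of the cell and direct vesicle traffic between them. Exchange factors load them with GTP, which lets them recruit effectors such as motors and tethers, and GTPase activating proteins switch them off. A lipid tail added by geranylgeranyl transferase anchors them in membranes, from which GDI proteins extract them. Rab11a and Rab11b direct traffic through recycling endosomes, and Rab25, a close relative sometimes called Rab11c, does so mainly in epithelial cells, where it serves apical recycling.

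The region before the transcription start of 4 of these genes is shown because the recycling group is the one set against the rest, Rab25 is known from epithelia, whose genes Snail is known to silence, and Rab4b had the largest positive difference in the family. The sequences are the 250 bases before the annotated start, read 5' to 3' toward the gene, from RefSeq on GRCm38.p6. All 4 lie on the minus strand: Rab25 at chr3:88548280-88548529, Rab11a at chr9:64737757-64738006, Rab11b at chr17:33760487-33760736 and Rab4b at chr7:27178884-27179133. Both strands were searched, and capitals mark matches to the Snail E-box CAGGTG, which reads CACCTG on the opposite strand, and to the cAMP response element TGACGTCA.
Rab25: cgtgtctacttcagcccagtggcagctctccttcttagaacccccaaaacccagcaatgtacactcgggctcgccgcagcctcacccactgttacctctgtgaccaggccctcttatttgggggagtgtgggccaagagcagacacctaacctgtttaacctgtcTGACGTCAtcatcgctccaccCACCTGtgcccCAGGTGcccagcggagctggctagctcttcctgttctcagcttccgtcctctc
Rab11a: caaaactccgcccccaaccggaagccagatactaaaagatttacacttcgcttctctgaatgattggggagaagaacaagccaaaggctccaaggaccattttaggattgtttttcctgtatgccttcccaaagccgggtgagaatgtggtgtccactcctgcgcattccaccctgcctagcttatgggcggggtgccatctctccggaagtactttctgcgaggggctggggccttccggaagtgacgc
Rab11b: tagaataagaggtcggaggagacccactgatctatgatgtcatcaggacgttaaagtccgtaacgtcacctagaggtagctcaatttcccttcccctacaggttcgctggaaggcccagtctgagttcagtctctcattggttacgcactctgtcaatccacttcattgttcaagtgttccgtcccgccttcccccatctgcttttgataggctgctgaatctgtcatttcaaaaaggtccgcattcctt
Rab4b: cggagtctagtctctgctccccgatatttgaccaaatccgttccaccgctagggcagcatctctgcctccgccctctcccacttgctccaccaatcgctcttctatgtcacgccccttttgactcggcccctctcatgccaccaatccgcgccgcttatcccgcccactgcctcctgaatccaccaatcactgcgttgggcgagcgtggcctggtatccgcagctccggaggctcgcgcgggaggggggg

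Rab25 held 2 E-box matches, at 64 to 59 and 53 to 48 bases before the start, and 1 cAMP response element at 85 to 78 bases. These 3 matches do not overlap, and Rab11a, Rab11b and Rab4b held neither motif in this window. RefSeq promoters were matched for 48 of the 59 Rab genes (60 promoters). The E-box stood in 9 of the 60 Rab promoters (15%), against 17.2% of all 32851 promoters of this length, and at least 2 copies stood in 3.33% against 2.06%. The cAMP response element, which reads the same on both strands, stood in 3.33% of the Rab promoters and 1.55% of all promoters. The 9 genes with an E-box (Rab3a, Rab5c, Rab9, Rab15, Rab17, Rab19, Rab23, Rab25 and Rab27a) had a median log2 difference, knockout minus control, of -0.02, with 4 of 9 above 0 and a range of -0.21 to 0.87. The 39 without one had a median of -0.11, with 12 above 0. The Rab genes with at least 2 E-box copies were Rab25 (0.87) and Rab23 (-0.20, and -0.56 in its second probe set). Rab4b held 3 CCAAT boxes (CCAAT or ATTGG) instead, and at least 2 of these stood in 16.7% of Rab promoters and 10.1% of all promoters. These matches describe letters only, and binding was not measured.

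In the recycling group, Rab25 was higher in the knockout and Rab11b lay higher without passing the threshold, whereas the brightest Rab11a probe set differed by less than its error. Rab25 was at 7.61 and 7.92 in the knockout against 6.96 and 6.84 in the control. Both knockout arrays lay above both control arrays, and Rab25 rose by 0.87 ± 0.16 (log2, SE), a 1.83-fold difference (limma adjusted p = 0.0405). Rab11b, which shares the recycling endosome with Rab11a and is abundant in brain, was at 8.80 and 8.63 in the knockout against 7.99 and 8.17 in the control. The groups did not overlap, with a difference of 0.64 ± 0.15 (SE, adjusted p = 0.0549). This value lies next to the threshold, and Rab11b passed after a further quantile normalization (0.68, adjusted p = 0.0416, in a fit that calls 4.79% of all genes) and when only genes at a mean of at least 6 were tested (adjusted p = 0.0442, with 12.9% of them called). Rab11a, the ubiquitous member of the group, was at 10.33 and 10.38 in the knockout against 10.33 and 10.27 in the control. Its groups overlapped, and the difference of 0.05 had a 95% interval of -0.26 to 0.36.

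**Figure D1:**
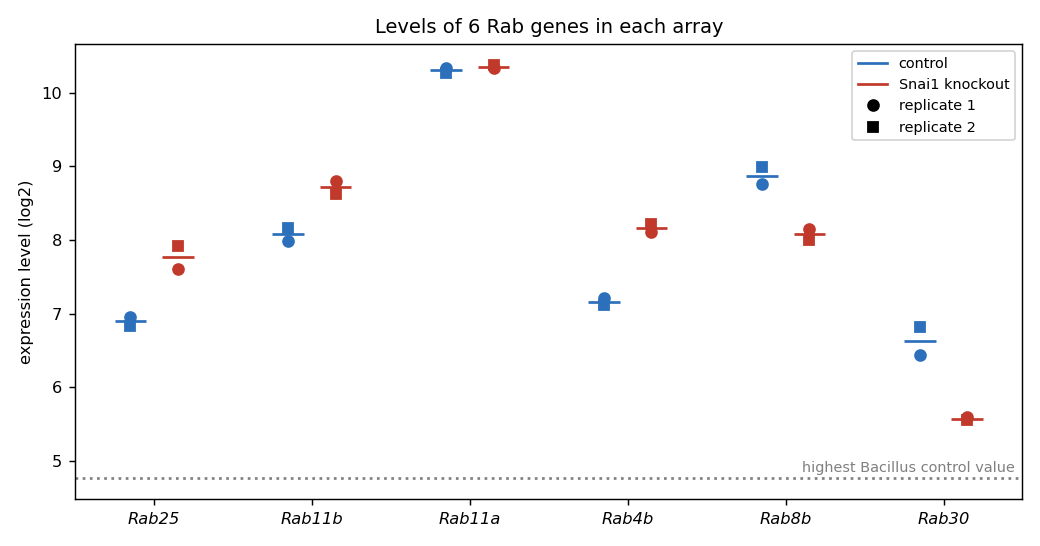
Expression level (log2, deposited values) of 6 Rab genes in each array, with circles for replicate 1, squares for replicate 2, horizontal bars for the mean of the 2 arrays of a group, and a dotted line at the highest Bacillus control value (4.77). The knockout arrays lie above the control arrays for Rab25, Rab11b and Rab4b, below them for Rab8b and Rab30, and among them for Rab11a.

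Other probe sets of the recycling group did not all follow the brightest. A second bright probe set of Rab11a was at 8.01 and 7.68 in the knockout against 8.57 and 8.84 in the control, a difference of -0.86 in the opposite direction to the brightest (limma adjusted p = 0.0667 over all probe sets). Averaging both gave Rab11a a difference of -0.40 (adjusted p = 0.120). A dimmer Rab11b probe set was at 6.14 and 5.51 in the knockout against 6.005 and 5.39 in the control, with overlapping groups and a difference of 0.13, and the third Rab11b probe set lay at 4.28 or less, within the background range. Rab25 had 1 probe set, so no second reading of it exists on this array.

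Set against the rest of the family, the recycling group lay higher in the knockout. The mean level of Rab11a, Rab11b and Rab25 minus that of the other 56 Rab genes was 1.73 and 1.83 in the knockout against 1.21 and 1.17 in the control, so that this gap was wider in both knockout arrays, by a mean of 0.59. Levels of different probe sets cannot be compared, so only the change of the gap between the groups is read from these values. The median difference, knockout minus control, was 0.64 in the recycling group and -0.05 in the other Rab genes, beside -0.02 over all genes tested. The gap between the medians was 0.68, and it was 0.30 with probe sets averaged per gene. Averaging took Rab11b, the middle gene of the 3 by difference, from 0.64 to 0.27 (adjusted p = 0.338) and Rab11a from 0.05 to -0.40, while Rab25 has 1 probe set. Both further probe sets that lower the Rab11b average are the dim ones described above. A group of 3 genes chosen with earlier results known gets no test of its own, and these values describe it only. The knockout arrays, in which Rab25 and Rab11b were higher, were also those with the smaller Actb 3' to 5' gap.

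Across the whole family, 4 of 59 Rab genes passed the threshold of an adjusted p of 0.05, with Rab4b and Rab25 higher and Rab8b and Rab30 lower in the knockout. This is 6.78% of the members, beside 4.14% of all genes tested (1.98% higher and 2.17% lower). Among the 39 Rab genes at a mean level of 6 or more, the 4 make 10.3%, beside 7.29% of all genes at such a level. The groups did not overlap for 31 Rab genes, 12 higher and 19 lower (52.5%), beside 52.3% of all genes, so the family as a whole was close to the background in both counts. The family's median difference was -0.04, and its differences ranged from -1.05 to 0.9998. With any 1 of the 4 arrays left out no Rab gene passed (0 of 59), and the share of all genes that passed was 0.148% with knockout replicate 1 left out and 0.104% with knockout replicate 2 left out, and it was 0.275% and 0.022% with the control arrays 1 and 2 left out. These fits assume that the lone array varies like the remaining pair. The Rab25 difference was 0.71 to 1.02 in them. In the limma fit of all 4 arrays, 18 of 59 Rab genes were at an unadjusted p under 0.05, beside 4353 of all 18193 genes. Among genes at a mean level of 6 or more these were 17 of 39 Rab genes, beside 3686 of 9484 genes. With all arrays, an intensity trend in the fit ended the Rab8b call (2.64% of all genes passed), and with probe sets averaged per gene Rab21 (-0.67, adjusted p = 0.0483) passed in place of Rab8b (-0.43, adjusted p = 0.0909), beside 1.76% of all genes. With every probe set tested singly, Rab4b alone of the family passed (0.79% of probe sets), and Rab25 had an adjusted p of 0.0580.

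**Figure D2:**
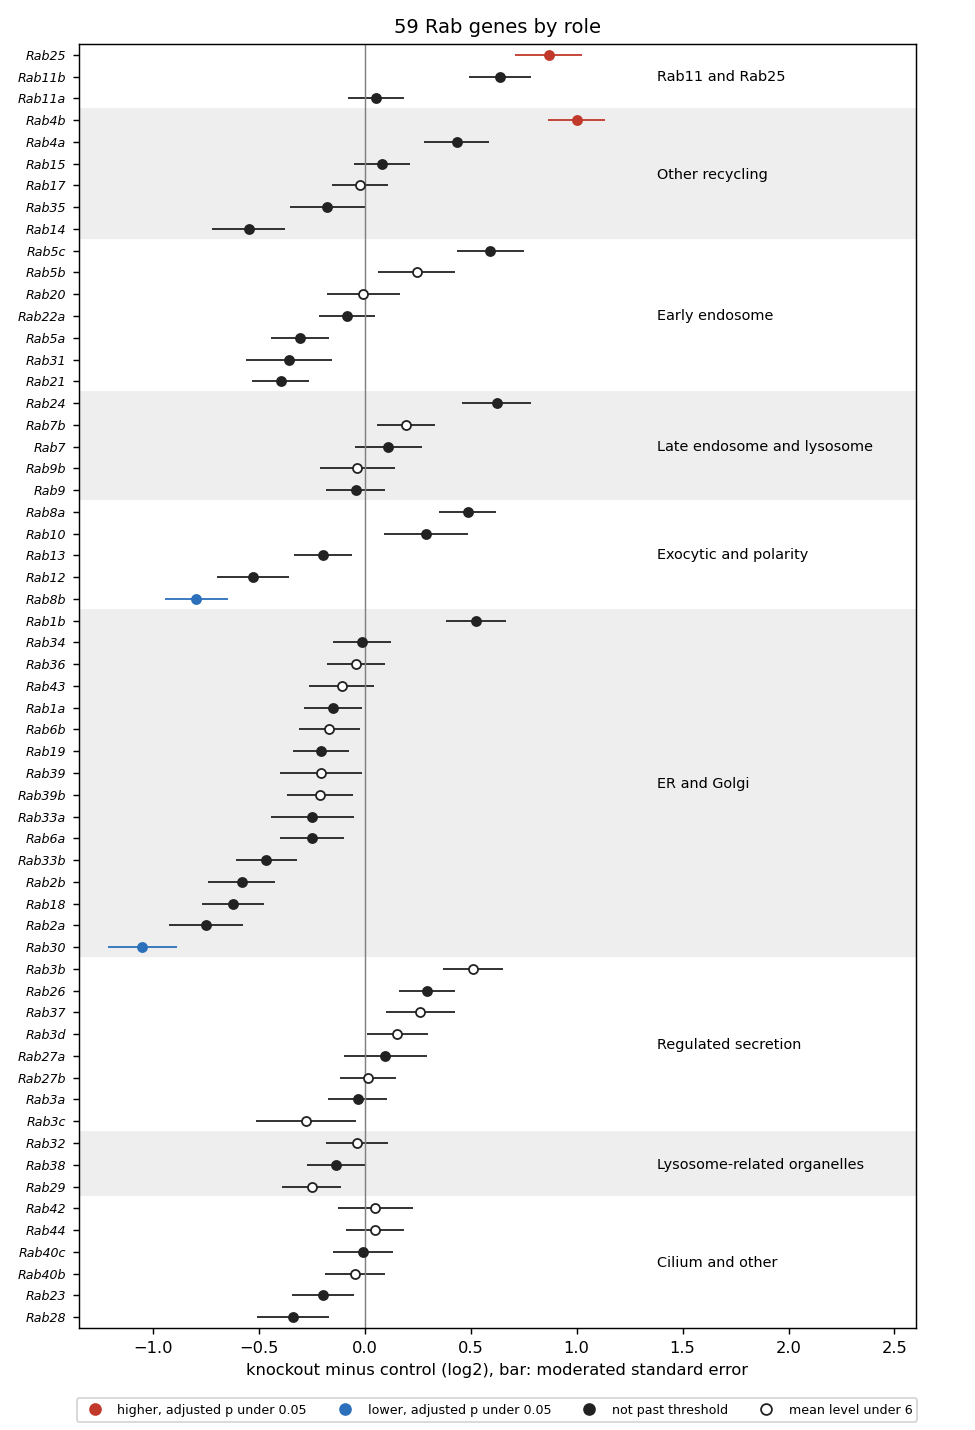
Difference of each of the 59 Rab genes, knockout minus control (log2), with the moderated standard error as bar and the genes grouped by role (shaded blocks). Red and blue mark genes past the threshold, open circles mark a mean level under 6; Rab25 (0.87) and Rab4b (0.9998) lie at the right and Rab8b (-0.79) and Rab30 (-1.05) at the left, while 15 of the 16 ER and Golgi members lie left of 0 (11 of 16 with probe sets averaged).

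Among the 6 Rab genes of fast and other endosomal recycling, 1 rose (16.7%, beside 4.14% of all genes tested) and none fell. A single call gives no direction for the role. Rab4b, which returns cargo quickly from early endosomes to the surface, was at 8.11 and 8.22 in the knockout against 7.21 and 7.12 in the control. It rose by 0.9998 ± 0.13 (log2, SE; adjusted p = 0.0282) and has 1 probe set. Rab4a, its paralog, was at 9.10 and 8.83 in the knockout against 8.46 and 8.60 in the control, without overlap, but its difference of 0.43 did not pass (adjusted p = 0.137). A second Rab4a probe set differed by 0.73 in the same direction. Rab14, which acts between the Golgi and early endosomes, ran the other way at 11.14 and 10.75 in the knockout against 11.60 and 11.39 in the control (difference -0.55, adjusted p = 0.107). Rab35, of the plasma membrane recycling route, overlapped between the groups, and Rab17, which like Rab25 is known from epithelial cells, was at 5.14 to 5.25 on the 4 arrays. These Rab17 values lay just above the background limit and their groups overlapped, with a difference of -0.02. It was 0.17 with probe sets averaged, which takes in a second probe set at 4.47 or less, within the background range.

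None of the 7 early endosomal Rab genes passed (limma, 2 at an unadjusted p under 0.05). The Rab5 paralogs, which drive the fusion of early endosomes, lay in different directions. Rab5c was at 9.42 and 9.21 in the knockout against 8.58 and 8.87 in the control (difference 0.59, adjusted p = 0.0747), without overlap. Rab5a was at 10.99 and 10.84 in the knockout against 11.18 and 11.25 in the control (-0.31, adjusted p = 0.232), also without overlap. Rab5b lay at 4.83 or less, above the background limit on 1 array. Rab21, which moves integrins from the surface, was lower in both knockout arrays (8.51 and 8.49 against 8.97 and 8.83, difference -0.40), and its second, dimmer probe set differed by -0.95 (adjusted p = 0.0556 over all probe sets).

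None of the 5 Rab genes of late endosomes and lysosomes passed (limma, 1 at an unadjusted p under 0.05). Rab7, which directs late endosomes to lysosomes, was at 11.64 and 11.33 in the knockout against 11.29 and 11.46 in the control, with overlapping groups and a difference of 0.11. Rab24, tied to autophagy, had the largest difference here, at 9.48 and 9.55 in the knockout against 8.71 and 9.08 in the control (0.62, adjusted p = 0.0711). A second Rab24 probe set differed by 0.30 in the same direction.

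Among the 5 exocytic and polarity Rab genes, 1 fell (20%, beside 4.14% of all genes tested) and none rose. A single call gives no direction for the role. Rab8b, which carries vesicles from the Golgi and recycling endosomes to the plasma membrane, was at 8.15 and 8.004 in the knockout against 8.75 and 8.99 in the control. It fell by 0.79 ± 0.15 (log2, SE, adjusted p = 0.0425), and its dim second probe set, at 3.81 or less and so within the background range, differed by -0.07. Its paralog Rab8a, which has a role at the primary cilium and apical surface, lay in the other direction at 9.08 and 9.02 in the knockout against 8.50 and 8.62 in the control (0.49, adjusted p = 0.0802). Rab12, a regulator of receptor degradation, lay lower in the knockout (7.55 and 7.14 against 7.88 and 7.86). Rab10, which delivers GLUT4 and basolateral cargo, overlapped between the groups (9.90 and 9.44 against 9.56 and 9.20).

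Most of the 16 Rab genes of the endoplasmic reticulum (ER) and Golgi had a difference below 0. Only 1 passed the threshold (6.25%, beside 4.14% of all genes tested). The groups did not overlap for 10 of them, 9 lower and 1 higher in the knockout, and overlapped for 6. These 10 make 62.5%, beside 52.3% of all genes and 63.6% of genes at a mean level of 6 or more. At that level 3729 of 9484 genes were lower without overlap and 2304 were higher. In 15 of 16 the difference of the brightest probe set was below 0, with a median of -0.21, while over all genes 53.4% were below 0. Of all genes at a mean level of 6 or more, 5529 of 9484 were below 0. With probe sets averaged per gene 11 of the 16 were below 0 (68.8%, beside 50.5% of all genes), with Rab1a (0.16), Rab6a (0.45), Rab36 (0.023) and Rab43 (0.027) above 0 beside Rab1b, and the median was again -0.21. Rab30, a Golgi Rab and the 1 that passed, was at 5.59 and 5.56 in the knockout against 6.44 and 6.81 in the control, a fall of 1.05 ± 0.16 (log2, SE, adjusted p = 0.0328), and its second probe set, at 3.64 or less, was within the background range. Rab2a, which acts between the ER and Golgi, was at 10.40 and 9.98 in the knockout against 10.87 and 11.01 in the control (-0.75, adjusted p = 0.0573). Rab18, of lipid droplets and the ER, was at 10.29 and 10.22 against 10.75 and 11.01 (-0.62, adjusted p = 0.0591). Both lay lower in both knockout arrays without passing. Both passed when only genes at a mean of at least 6 were tested (adjusted p = 0.0420 for Rab2a and 0.0470 for Rab18, with 12.9% of those genes called). Rab2a also passed with a minimum mean of 5 (adjusted p = 0.0495, with 8.2% of those genes called). A second bright Rab2a probe set was at 9.79 and 9.81 in the knockout against 9.84 and 9.90 in the control (-0.07). The third bright one differed by -0.53, and a second bright Rab18 probe set differed by -0.29 with overlapping groups. With probe sets averaged, Rab2a differed by -0.30 and Rab18 by -0.46.

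Rab2b (-0.58, adjusted p = 0.0765) and Rab33b (-0.46, adjusted p = 0.105), which has a part in autophagy, were also without overlap. The 1 ER and Golgi member above 0 was Rab1b, needed with Rab1a for transport from the ER to the Golgi. Rab1b was at 8.46 and 8.25 in the knockout against 7.82 and 7.83 in the control (0.53, adjusted p = 0.0748). Rab1a lay at 12.48 and 12.45 in the knockout against 12.53 and 12.70 in the control (-0.15), and its second bright probe set differed by 0.15. The brightest probe sets of the paralogs Rab1a and Rab1b, Rab5a and Rab5c, and Rab8a and Rab8b thus had opposite signs within each pair. Of these 6 genes 1, Rab8b, passed, and the sign of Rab1a turned with probe sets averaged.

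None of the remaining roles held a gene past the threshold (limma, 1 gene, Rab3b, at an unadjusted p under 0.05). In regulated secretion, 8 genes had differences from -0.28 to 0.51, and 4 of the 8 lay above background on all arrays. Rab3b, a synaptic vesicle Rab, had the largest, at 5.17 and 4.95 in the knockout against 4.56 and 4.54 in the control. The control values were within the background range, so no fold is given for Rab3b (0.51, adjusted p = 0.0813). Rab3a, its neuronal paralog, was at 8.51 and 8.61 in the knockout against 8.66 and 8.52 in the control, with overlap (-0.03). The name of this Rab3a probe set ends in _x_at, and a dimmer one differed by 0.27 without overlap. Of the 3 genes of lysosome-related organelles, Rab38 and Rab29 lay lower in both knockout arrays (-0.13 and -0.25). Of the 6 ciliary and other members, Rab23, an inhibitor of Hedgehog signalling, and Rab28 lay lower without passing (-0.20 and -0.34), and Rab40c overlapped. Over the family, 8 of 59 genes were below the background limit on every array, 3 on some arrays and 48 on none.

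Probe sets of the same Rab gene often differed. Of the 23 further probe sets with a mean of at least 6, 15 had the sign of the brightest (65.2%), beside 62.2% of 5377 such probe sets over all genes. The widest split was that of Rab14. Its brightest probe set differed by -0.55 and other bright ones by -0.83 and -0.46. The remaining bright one, at 9.32 and 9.26 in the knockout against 8.85 and 7.89 in the control, differed by 0.92. Rab6a, a Golgi Rab that acts in retrograde transport, came next. Its brightest probe set was at 10.36 and 10.12 in the knockout against 10.57 and 10.40 in the control (-0.25). Another was at 10.02 and 9.59 in the knockout against 9.20 and 8.59 in the control (0.91), and the third bright one differed by 0.68. Where these probe sets lie in the transcripts is not stated in the labels.

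**Figure D3:**
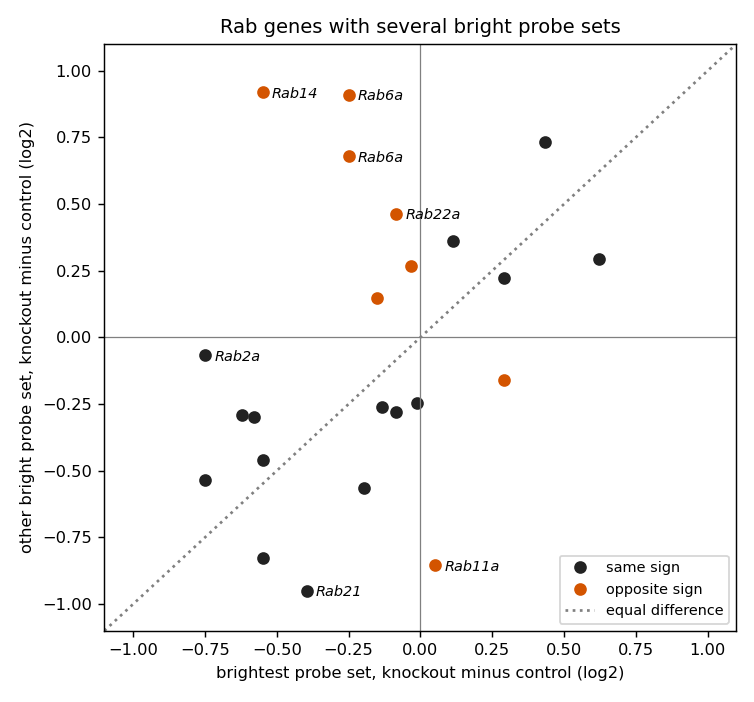
Difference (knockout minus control, log2) of the brightest probe set of a Rab gene on the horizontal axis and of each further probe set with a mean of at least 6 on the vertical axis, with a dotted line where both are equal. Orange points (8 of 23) have opposite signs, and Rab14, Rab6a and Rab11a lie farthest from the line.

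Differences of shorter Rab genes tended to be higher than those of longer ones. Among the 39 Rab genes at a mean of 6 or more, Spearman's rho between genomic span and difference was -0.41, a description across genes that share 4 arrays, and it was -0.34 over 9472 genes at that level. Rab25 spans 6.25 kb, Rab4b 10.5 kb and Rab11b 18.003 kb, while Rab8b spans 76.1 kb and Rab30 103 kb, the largest of these 5. Of the 20 expressed Rab genes at or under the median span, 2 rose and none fell, while of all genes at that level and up to that span 5.54% rose and 1.48% fell. Of the 19 over it, 2 fell and none rose, while of all such genes 6.03% fell and 1.5% rose. The median differences of the Rab genes were -0.02 and -0.25, beside 0.04 and -0.23 over all genes of the same level and span. After each array's trend with span and mean level was removed, Rab4b (0.94, adjusted p = 0.0283), Rab30 (-0.92, adjusted p = 0.0386) and Rab11b (0.66, adjusted p = 0.0464) passed, whereas Rab25 (0.76, adjusted p = 0.0541) and Rab8b (-0.58, adjusted p = 0.0669) did not. In that fit 3 of 59 Rab genes and 3.24% of all genes passed. The Actb 3' to 5' gap differed between the same groups by 2.04.

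**Figure D4:**
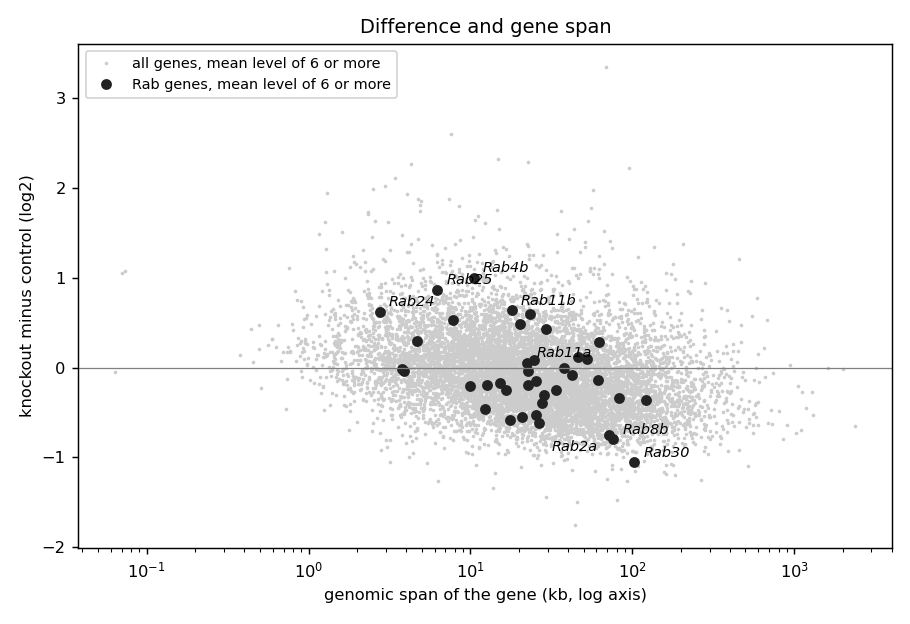
Difference (knockout minus control, log2) against the genomic span of the gene (kb, log axis) for all genes at a mean level of 6 or more (grey) and the 39 Rab genes at that level (black). Rab25, Rab4b and Rab11b lie at short spans above 0, and Rab8b and Rab30 at long spans below 0.

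Proteins that act on or through Rabs were taken from 5 lists with 139 measured genes in all. Of these, 1 rose and 7 fell (5.76%, beside 4.14% of all genes tested), with a median difference of -0.14 beside -0.02 over all genes. Of the 139, 104 were at a mean level of 6 or more, where 7.29% of all genes passed and the median difference was -0.09. The partner genes spanned a median of 51.6 kb, beside 20.2 kb over all genes. Among all genes at that level with a span over 23.2 kb, 6.03% fell, 1.5% rose and the median difference was -0.23. With all arrays 54 of the 139 were at an unadjusted p under 0.05 (limma), beside 4353 of all 18193 genes. With any 1 array left out none of the 139 passed (limma, 34 to 44 at an unadjusted p under 0.05).

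Rabac1, which helps place prenylated Rabs in membranes, was the 1 partner that rose. It was 1 of 8 genes of the prenylation and recycling machinery (12.5%, beside 4.14% of all genes tested). It was at 10.03 and 10.09 in the knockout against 8.84 and 8.92 in the control, a 2.27-fold difference (1.18 ± 0.13, log2, SE, adjusted p = 0.0186). Among 20 partners of Rab11 and Rab25, none rose and 1 fell (5%, beside 4.14% of all genes tested). This was Wdr44, a Rab11-binding WD-repeat protein, at 7.67 and 7.45 in the knockout against 8.40 and 8.38 in the control (-0.83 ± 0.14, SE, adjusted p = 0.0375). The partners of Rab11 and Rab25 had a median difference of -0.31 and a median span of 56.8 kb. All genes at a mean level of 6 or more with a span over 23.2 kb had a median difference of -0.23. Rab25 and Rab11b, which lay above 0, span 6.25 and 18.003 kb. Whether the partners differ from other genes of their span was not tested.

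Of 40 exchange factors, 2 fell and none rose (5%, beside 4.14% of all genes tested). Rabgef1, an exchange factor for Rab5 also known as Rabex-5, was at 7.997 and 7.497 in the knockout against 8.82 and 8.96 in the control (-1.15 ± 0.19, SE, adjusted p = 0.0351). A second bright Rabgef1 probe set differed by -0.91 and a dimmer one by 0.11. Dennd1b, which acts on Rab35, was at 7.88 and 7.85 in the knockout against 8.63 and 8.43 in the control (-0.66, adjusted p = 0.0487). The list of GTPase activating proteins held 42 genes, 1 of them Tbc1d22bos, an opposite-strand transcript of Tbc1d22b taken in by its symbol, below background on all arrays. Of the 42, 1 fell and none rose (2.38%, beside 4.14% of all genes tested). This was Tbc1d19, at 7.20 and 7.02 in the knockout against 7.90 and 8.16 in the control (-0.92, adjusted p = 0.0352).

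Of 39 effectors, 3 fell and none rose (7.69%, beside 4.14% of all genes tested). Fyco1, which links Rab7 vesicles to kinesin, was at 5.76 and 5.48 in the knockout against 6.35 and 6.60 in the control (-0.85, adjusted p = 0.0428). Ocrl, an inositol phosphatase that binds several Rabs, differed by -0.67 (adjusted p = 0.0473). Uso1, the Rab1 effector p115 that tethers vesicles at the Golgi, was at 9.78 and 9.63 in the knockout against 10.35 and 10.37 in the control (-0.65, adjusted p = 0.0482). With probe sets averaged per gene, Rabac1 alone of the 8 passed. The Rabgef1 difference was then -0.65, that of Tbc1d19 -0.51, of Wdr44 -0.42, of Fyco1 -0.27, of Ocrl -0.17 and of Dennd1b -0.11. Apart from Rabgef1, none of these genes had a further probe set above the background limit on all arrays. Rabac1 and Uso1 have 1 probe set each, and Uso1 had an adjusted p of 0.0505 in that fit.

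**Figure D5:**
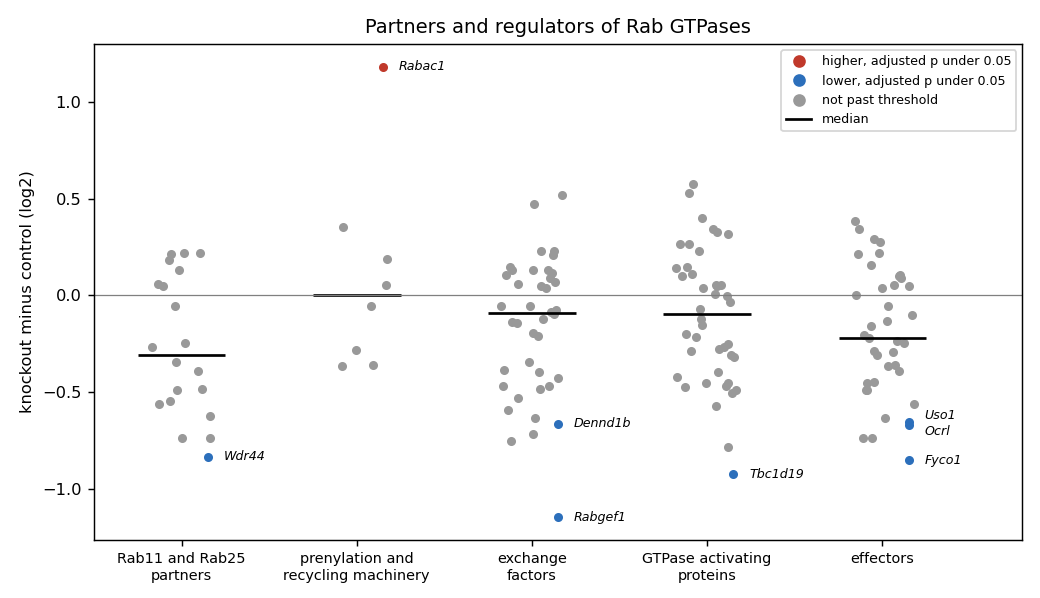
Difference (knockout minus control, log2) of each measured gene in 5 lists of Rab partners and regulators, 1 point per gene, with the list median as a bar. Rabac1 (1.18) is the 1 gene higher past the threshold, and Wdr44, Rabgef1, Dennd1b, Tbc1d19, Fyco1, Ocrl and Uso1 are lower.

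The replicate order of the feeder markers was not that of the Rab genes as a family. Of 59 Rab genes, 14 were higher in replicate 1 in both groups (23.7%, beside 24.5% of all genes), whereas 17 of 23 feeder markers were. The mean level of 8 primitive endoderm markers was 5.401 and 5.34 in the knockout against 5.452 and 5.36 in the control. That of 8 trophectoderm and simple epithelium markers was 7.31 and 6.83 in the knockout against 6.94 and 6.82 in the control, with no marker of either list past the threshold (limma, 2 of 8 in each list at an unadjusted p under 0.05). The 8 ES cell markers had a mean of 11.84 and 11.71 in the knockout against 11.16 and 11.23 in the control. Of these, 4 rose, beside 1.98% of all genes, namely Utf1 (1.62), Esrrb (1.05), Nanog (0.94) and Pou5f1 (0.85). The rest did not pass, with differences of -0.02 for Sox2, 0.02 for Tdgf1 and Zfp42 and 0.14 for Dppa5a. In these bulk samples fewer cells of a type and less RNA per cell cannot be told apart, and the part of RNA quality and of the share of ES cells in the Rab differences was not tested.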

How the data were processed

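The authors deposited log2 expression, 1 value per probe set and array, from single-colour Affymetrix arrays, made with RMA (background correction, quantile normalization and probe set summary) per the submitters' processing notes, which also name limma. Neither has a version there, and the order of steps and any genome build are not stated. Quantile normalization makes the distributions of the arrays equal, so a shift common to most genes would not show. Array medians ranged from 4.91 to 4.95, and no further normalization was applied.

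Gene names came from GEO's annotation of the platform, with symbols checked by gene ID against RefSeq (GRCm38.p6). Of 45101 probe sets, 34958 had 1 symbol, 932 had several and 9211 had none, and the 64 control probe sets were set aside. Knockout was compared with control over all genes with limma 3.58.1 (R 4.3.3, lmFit and eBayes), with 2 residual and 5.31 prior degrees of freedom, two-sided, and Benjamini-Hochberg adjustment at 0.05. The number of arrays limits the precision. The test was tested on simulated data. ± marks limma's moderated standard error (SE).

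The members, roles, partner lists, motifs and tests were chosen with earlier results of these data known. Of 155 list entries, 6 were not measured. Genes named by rule were Rab25, Rab11a and Rab11b, every Rab gene past the threshold, the member of each role with the highest mean level and with the largest difference, and up to 3 partners per list and direction past the threshold. Other Rab genes were named after their values were seen. Probe sets whose names end in _s_at or _x_at can bind several transcripts, so these readings of closely related paralogs are uncertain. Levels of different probe sets were ranked only to pick the brightest of a gene and the highest of a role, not as a result. Alternatives are given in the closing section.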

Additional observations from a re-analysis of the deposited data

How the results depend on the processing

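The directions of Rab25, Rab11b, Rab4b, Rab8b, Rab30 and the 8 named partners held under every alternative run. The count of Rab genes past the threshold was 4 and ranged from 3 to 5 with an intensity trend, a robust fit, a further quantile normalization, median centring, a minimum mean of 5, all probe sets averaged or the span trend removed. Those fits called 1.76% to 8.2% of the genes tested. The count was 7 of 39 (3 higher, 4 lower) with a minimum mean of 6, where fewer genes are tested and 12.9% of them passed. It was 1 (Rab4b) when all probe sets were tested singly, beside 0.79% of probe sets. The partners past the threshold, 8 in the report, were 5 with an intensity trend, beside 2.64% of all genes. With a minimum mean of 6 they were 13 of 104 (1 higher, 12 lower), beside 12.9% of genes at that level. They were 1 with all probe sets averaged (1.76% of all genes) and 1 with probe sets tested singly (0.79% of probe sets). With the span trend removed they were 5 (3.24% of all genes). Where no construction is named, the cause was not tested.

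The gap between the medians of the recycling group and the other Rab genes, 0.68, was 0.77 at a minimum mean of 5, 0.80 at 6 or against only the other Rab genes of 6 or more, 0.30 with all probe sets averaged and 0.59 with means. Leaving out each array in turn gave 0.61 to 0.79, with 0 Rab genes and 0 partners past the threshold each time.

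Replicate numbers are shared by the groups, but nothing in the labels pairs the samples. The deviations of same-numbered arrays correlated at 0.29 over genes. With the replicate block 16 Rab genes passed (8 higher, 8 lower), beside 17% of all genes, and 35 partners (4 higher, 31 lower); the 4 Rab genes of the report were among the 16, and so were Rab11b (adjusted p = 0.0135), Rab2a (0.00946) and Rab18 (0.0145).

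Signs turned for some genes that had not passed. With all probe sets averaged this held for 11 of the 59 Rab genes, namely Rab11a (-0.40), Rab1a (0.16), Rab3a (0.12), Rab40c (0.16), Rab6a (0.45), Rab22a (0.10), Rab17 (0.17), Rab36 (0.023), Rab43 (0.027), Rab27a (-0.026) and Rab27b (-0.0021). Of these, Rab40c, Rab17, Rab43, Rab27a and Rab27b had no further probe set above the background limit on all arrays. Among the Rab genes followed under all settings, other signs turned as follows. With a further quantile normalization they were Rab3a (0.015) and Rab40c (0.038), and with the span trend removed Rab40c (0.16) and Rab22a (0.068). With 1 array left out, Rab7 ranged from -0.042 to 0.27, Rab3a from -0.11 to 0.039, Rab17 from -0.062 to 0.018, Rab40c from -0.12 to 0.10 and Rab35 from -0.35 to 0.0013. Signal near background limits 20 of the 59 Rab genes, those at a mean under 6.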
